A study of Mus musculus and Bos taurus with 6 samples.

Results

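The bovine mammary gland tables list 178 mature miRNA under the name of a species other than cattle, and 167 of these had at least 1 count in either of the 2 bovine samples. These 167 miRNA, called borrowed-name miRNA below, were chosen by the prefix of their name alone (any prefix but bta-, the prefix of Bos taurus, and no ending that marks a predicted miRNA). They were 167 of 1333 bovine miRNA with a count. The rest were bta- miRNA or, in 679 cases, miRNA predicted from the reads. Human names (hsa-) gave 88 of them and mouse names (mmu-) 49. Sheep (oar-) gave 8, rat (rno-) 6, rhesus macaque (mml-) 5 and pig (ssc-) 3, and the last 8 came from chicken, horse, zebra finch, opossum and Chinese hamster.

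Small RNA was sequenced from mammary biopsies of multiparous Holstein cows at mid-lactation, in 2 samples that each pooled the RNA of 2 cows. The labels mark both samples with LF, read here as a low forage diet, which the paper does not name. Mouse samples 1 and 2 came from abdominal mammary glands, with the lymph node removed, of primiparous FVB/N mice on day 12 of lactation. AGO2 samples 1 and 2 held small RNA precipitated from such mouse tissue with the protein Argonaute 2 (AGO2), which carries mature miRNA. No other treatment and no mutation was stated for any sample. The sources do not say which AGO2 sample shares a mouse with which total RNA sample, if any do. Species, parity, tissue sampling, RNA kit and pooling changed together between bovine and mouse, so their parts in any difference cannot be told apart. Nor can fewer cells of a type be told apart from less RNA per cell. Listed counts summed to 9402483 and 10613807 in bovine samples 1 and 2, to 9299807 and 8391916 in mouse and to 3909166 and 5041406 in AGO2. Levels are given as RPM, reads per 1000000 of these sums. Marker miRNA of the tissue were present, with bta-miR-200c of epithelium at 24588 and 30029 RPM, bta-miR-143 of contractile and stromal cells at 63041 and 48791 RPM, and bta-miR-451 of red blood cells at 1439.8 and 854 RPM.

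A miRNA is cut from a hairpin precursor whose 5′ and 3′ arms can each give a mature strand. Usually AGO keeps the strand of the favoured arm and the strand of the other arm, the passenger, is degraded. Nucleotides 2 to 8 of the strand, the seed, largely decide which messenger RNA are bound, so both arms of a hairpin have different targets. A reference list of a species that names a single arm leaves the reads of the other arm without a name in that species. Of the 167 borrowed-name miRNA, 166 were placed by the files on a bta- hairpin, so their reads belonged to hairpins known in cattle. A bta- row of the opposite arm was found by the full name for 125 of them and, with the copy number of the gene left out, for 21 more. By name or by shared precursor it was found for 156.

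Strands of the miR-30 and miR-200 families and of miR-140 are shown with the seed in capitals, to show which strands share a seed and because none of these seeds was held by a bta- miRNA. Within miR-30, the strands of miR-30a and miR-30e share a seed, and those of both miR-30c hairpins share another.
hsa-miR-30a-3p: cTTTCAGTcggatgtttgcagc
mmu-miR-30e-3p: cTTTCAGTcggatgtttacagc
hsa-miR-30c-2-3p: cTGGGAGAaggctgtttactct
mmu-miR-30c-1-3p: cTGGGAGAgggttgtttactcc
mmu-miR-200b-5p: cATCTTACtgggcagcattgga
mmu-miR-200a-5p: cATCTTACcggacagtgctgga
mmu-miR-140-5p: cAGTGGTTttaccctatggtag

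The next sequences show hairpins in which the borrowed-name arm had more reads than the arm listed for cattle, each followed by that bta- arm. The seeds of both arms differ in every pair.
rno-miR-340-5p: tTATAAAGcaatgagactgatt
bta-miR-340: tCCGTCTCagttactttatagcc
hsa-miR-376c-3p: aACATAGAggaaattccacgt
bta-miR-376c: gTGGATATtccttctatgttta
mmu-miR-542-3p: tGTGACAGattgataactgaaa
bta-miR-542-5p: tCGGGGATcatcatgtcacgag
mmu-miR-136-3p: aTCATCGTctcaaatgagtctt
bta-miR-136: aCTCCATTtgttttgatgatgga

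Borrowed-name miRNA were many but mostly rare. They held 0.939% and 0.911% of all counts in bovine samples 1 and 2. A single miRNA, hsa-miR-145-3p, made up 25.1% and 23.4% of these counts, and the first 4 made up 61.5% and 60.5%. All were counted in both samples except 11 seen in bovine sample 1 alone and 11 in bovine sample 2 alone, none of them with more than 8 counts. Of all 167, 44 had a summed count under 10, and 19 reached 100 RPM in at least 1 sample. The 2 samples differed little for miRNA with at least 10 counts in each: the SD of the log2 ratio was 0.44 over 102 borrowed-name miRNA and 0.42 over 317 bta- miRNA. Just inside the limit of 100 RPM lay mmu-miR-136-3p at 100.1 and 68.9 RPM, and just outside it lay mmu-miR-200a-5p at 67.5 and 61.9 RPM.

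Only 2 borrowed-name miRNA exceeded 1000 RPM. hsa-miR-145-3p, from a hairpin typical of smooth muscle and myoepithelium, reached 2357 and 2135 RPM (mean 2246 ± 157, SD, n = 2), and ranked 56 among all bovine miRNA. hsa-miR-30a-3p, from the miR-30 family that is abundant in epithelia, reached 1693 and 1785 RPM and ranked 65. Both had nearly the same level in each pool.
Below these came 4 further miRNA well above the limit. mmu-miR-30e-3p was at 882 and 880.1 RPM, and differs from hsa-miR-30a-3p by at most 1 base over the shared length, so reads could have been split between these rows. rno-miR-340-5p was at 838 and 712 RPM. mmu-miR-200b-5p, of the miR-200 family that maintains the epithelial state, was at 388 and 514 RPM, and mmu-miR-140-5p was at 309 and 330.1 RPM.
The other 13 ranged from a mean of 84.5 to 215 RPM. They held arms of the miR-17/92 group of cell-cycle miRNA (hsa-miR-20a-3p at 205.3 and 225 RPM, mmu-miR-106b-3p at 158 and 157 RPM) and of the miR-29 family, which targets collagen genes (gga-miR-29b-2-5p at 166 and 125 RPM, hsa-miR-29a-5p at 108 RPM in both).
hsa-let-7d-3p was the only one of the 19 with over 2-fold between the pools, at 62.0 and 132.6 RPM.

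**Figure D1:**
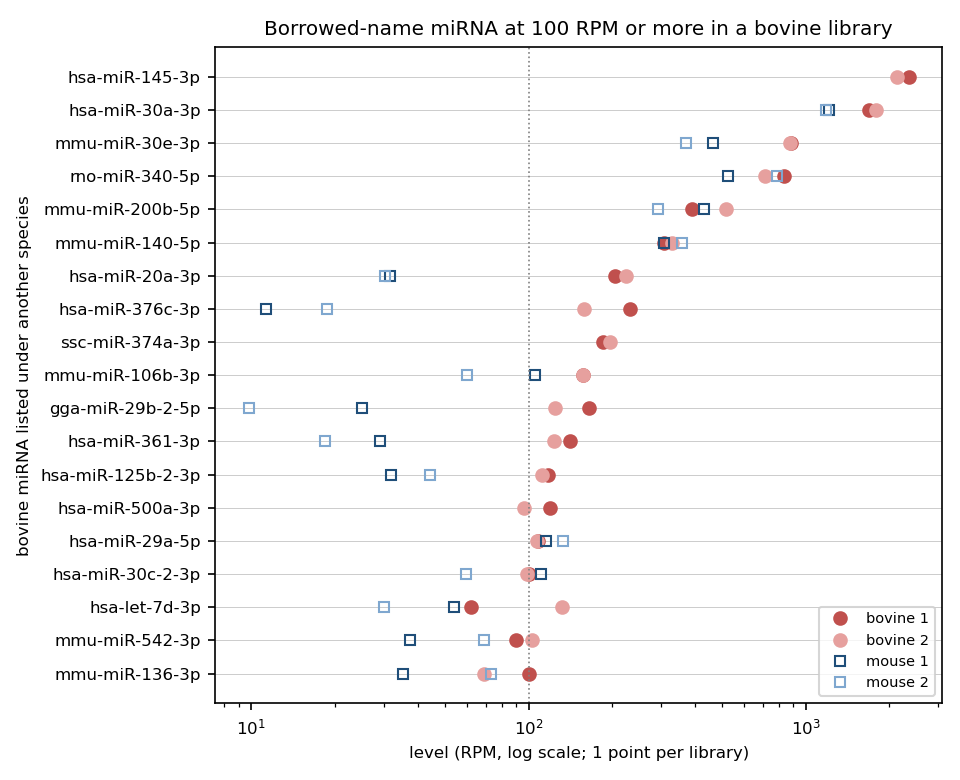
Level in RPM (log axis) of the 19 borrowed-name miRNA that reached 100 RPM (dotted line) in a bovine sample, with 1 point for each bovine sample (circles) and, where the mouse table lists the same name, each mouse sample (squares). hsa-miR-145-3p, at 2357 and 2135 RPM, stands highest, and the points of hsa-let-7d-3p lie farthest apart of the bovine pairs, at 62.0 and 132.6 RPM.

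The mouse sequences of RefSeq (GRCm38.p6) included an identical mature strand for 76 of the 167, which places the mouse homologues on the genome. mmu-miR-30e-3p lies at chr4:120772618-120772639 on the minus strand, in an intron of Nfyc. The mouse strand identical to rno-miR-340-5p lies at chr11:50069720-50069741 on the plus strand, in an intron of Rnf130. mmu-miR-106b-3p lies at chr5:138165746-138165767 on the minus strand, in an intron of Mcm7. mmu-miR-136-3p lies at chr12:109595366-109595387 on the plus strand, within an exon of the imprinted gene Rtl1 on the opposite strand. Bovine positions were not analysed here.

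In most hairpins the borrowed-name arm was the minor arm. Among the pairs matched by name, the bta- arm had more counts in both bovine samples in 129, the borrowed-name arm in 12, and in 5 the order was not the same in both. The borrowed-name arm made up a median of 1.60% and 1.73% of the counts of its pair. For comparison, the 46 bta- hairpins with both arms listed had a median of 3.34% and 3.38% for the lesser arm, against 1.20% and 1.22% for the lesser arm of the borrowed-name pairs.
The imbalance was extreme for the most abundant mammary miRNA. hsa-miR-148a-5p had 15 and 16 counts against 692982 and 795353 of bta-miR-148a, a share of 0.00216% and 0.00201% of the pair. mmu-miR-143-5p had 4 counts in each sample against 592740 and 517853 of bta-miR-143.
Other pairs were closer to even. hsa-miR-145-3p made up 26.8% and 26.0% of its pair, mmu-miR-30e-3p 28.4% and 32.6%, and mmu-miR-140-5p 28.6% and 34.8%, and in each of these the share differed little between the pools.

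The 12 hairpins with more counts on the borrowed-name arm in both bovine samples included 5 of the 19 miRNA above 100 RPM. In these the arm known in cattle was nearly silent or clearly the lesser.
rno-miR-340-5p had 7877 and 7561 counts against 696 and 737 of bta-miR-340. hsa-miR-376c-3p had 2191 and 1676 counts against 28 and 8 of bta-miR-376c. mmu-miR-542-3p had 850 and 1089 counts against 2 and 7 of bta-miR-542-5p.
The bta- arm was the lower of both in each pool. mmu-miR-136-3p had 941 and 731 counts against 5 and 4 of bta-miR-136, a share of 99.5% in both. hsa-miR-30c-2-3p had 944 and 1047 counts against 439 and 580 of bta-miR-30c, a share of 68.3% and 64.4%. The files place hsa-miR-30c-2-3p on the precursor of bta-miR-30f instead, which had 100 and 160 counts, and it led there too, with 90.4% and 86.7%.
The next in level was hsa-miR-493-5p, with 410 and 698 counts against 93 and 66 of bta-miR-493. hsa-miR-628-3p held 73.6% and 62.1% of its pair, and hsa-miR-885-3p had 118 and 140 against 37 and 45. The 3′ arms of both miR-33 hairpins, which lie within the genes of the sterol regulators SREBF, also led: hsa-miR-33a-3p had 156 and 111 counts against 117 and 85, and hsa-miR-33b-3p had 26 and 17 against 25 and 11.
oar-miR-1185-3p (36 and 46 counts against 26 and 18) and hsa-miR-212-3p (9 and 8 counts against 0 and 4) completed the 12. Matching by precursor gave 14 in place of 12, with the addition of mmu-miR-409-3p (573 and 560 counts against 88 and 90 of bta-miR-409a) and oar-miR-544-5p (42 and 44 counts against 0 of bta-miR-544a in either sample). hsa-miR-212-3p and oar-miR-544-5p rest on few counts.

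**Figure D2:**
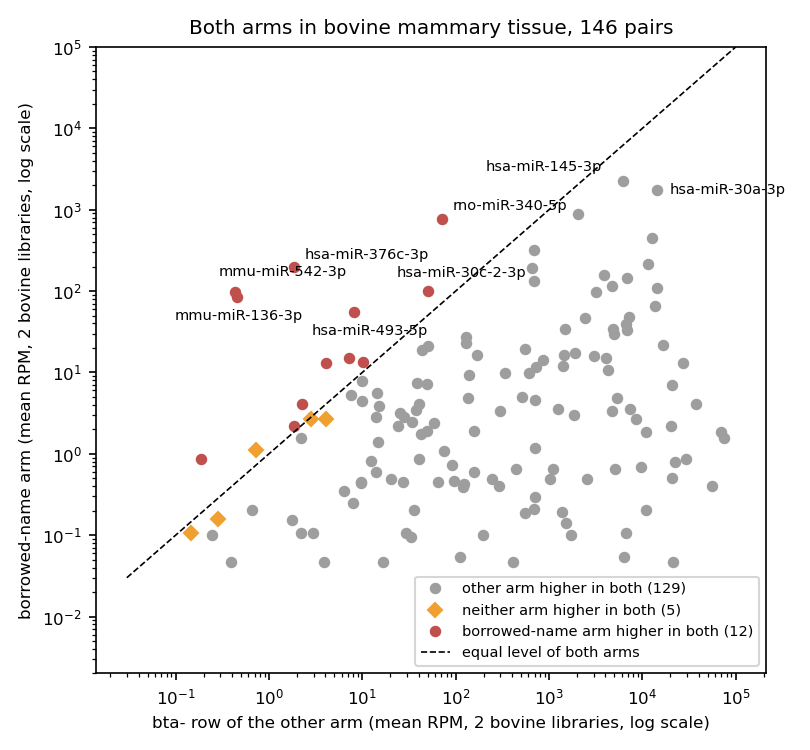
Mean level in RPM over the 2 bovine samples of each borrowed-name miRNA (vertical, log axis) against the bta- row of the other arm of its hairpin (horizontal, log axis), for the pairs matched by name. The 129 pairs below the dashed line of equal level (grey) had more counts on the bta- arm in both samples, and 12 (red) had more on the borrowed-name arm.

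The sequence of a strand tells something of which arm is favoured, since AGO proteins bind strands that start with U or A (T or A in these lists) more readily. Of the 167 borrowed-name strands, 19.2% started with T and 35.9% with C, against 44.4% and 15.4% of the bta- strands with a count. Among the 129 pairs led by the bta- arm, 17 borrowed-name strands and 75 bta- strands started with T. Among the 12 pairs led by the borrowed-name arm, 5 strands of each arm did. These counts were not tested, since strands of a family share their sequence. A borrowed-name strand was more often from the 3′ arm (105) than from the 5′ arm (62). Seeds were largely their own: 153 of the 167 had a seed that no bta- row holds, and the exceptions included hsa-miR-376c-3p, whose seed is shared with bta-miR-376e at 148.4 and 96.5 RPM.

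Lists of miRNA families and cell types were described next. The imprinted Dlk1-Dio3 region, a large cluster expressed from the maternal chromosome, gave the most, with 30 borrowed-name miRNA, 24 of them counted in both samples and 2 at 100 RPM. They summed to 572 and 455 RPM, led by hsa-miR-376c-3p, mmu-miR-136-3p, mmu-miR-409-3p and hsa-miR-493-5p, beside 1119 and 929 RPM for 37 bta- miRNA of the region. In 4 of 22 pairs matched by name the borrowed-name arm led in both samples, and in 15 the bta- arm did. By precursor the borrowed-name arm led in 6 of 27.
The let-7 family, regulators of differentiation, gave 9. All 9 lay below the 5′ arm in both samples, at a sum of 75.3 and 154.8 RPM against 163253 and 182993 RPM of 10 bta- rows.
The miR-30 family gave 5 and the largest sum, 2715 and 2797 RPM against 21799 and 19477 RPM of the bta- arms, from hsa-miR-30a-3p, mmu-miR-30e-3p, hsa-miR-30c-2-3p and mmu-miR-30c-1-3p (22.3 and 20.3 RPM). Its last, hsa-miR-30d-3p, was at 17.2 and 12.8 RPM.
The miR-29 family gave 4, among them mmu-miR-29c-5p at 52.3 and 41.4 RPM and hsa-miR-29b-1-5p at 36.1 and 30.1 RPM, and miR-17/92 with its paralogs gave 10. All pairs in both lists were led by the bta- arm.

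Cell type markers gave few borrowed-name miRNA of any level. The epithelial list gave 7, at a sum of 485.4 and 605 RPM, almost wholly mmu-miR-200b-5p, mmu-miR-200a-5p, hsa-miR-200c-5p (13.1 and 13.3 RPM) and hsa-miR-205-3p (11.8 and 9.89 RPM). The contractile and stromal list gave 6, at 2414 and 2186 RPM, of which hsa-miR-145-3p was nearly all and hsa-miR-10b-3p followed at 49.8 and 45.3 RPM. The blood, endothelial and leukocyte list gave 3, at 16.3 and 15.5 RPM, namely mmu-miR-146b-3p, mmu-miR-144-5p (7.44 and 3.77 RPM) and hsa-miR-223-5p.
All pairs of these 3 lists were led by the bta- arm. With both arms added, these lists were close in the 2 pools, at 81339.9 and 83651 RPM for the epithelial rows, 90204 and 76034 for the contractile and stromal rows and 67883 and 62169 for the blood, endothelial and leukocyte rows.
The X-linked miR-532/500 cluster gave 3, hsa-miR-500a-3p at 119.9 and 96.6 RPM, hsa-miR-532-3p at 19.4 and 19.2 RPM and mmu-miR-188-3p at 6.81 and 3.77 RPM. Both of its 2 pairs matched by name were led by the bta- arm.
The list of lipid and energy metabolism gave 8, at a sum of 88.5 and 75.3 RPM. It held hsa-miR-378a-5p at 40.0 and 39.9 RPM, mmu-miR-27b-5p at 25.2 and 18.7 RPM, hsa-miR-33a-3p at 16.6 and 10.5 RPM and hsa-miR-33b-3p at 2.77 and 1.60 RPM, and 2 of its 6 pairs, the miR-33 hairpins, were led by the borrowed-name arm.

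Some of the let-7 3′ arms differed between the pools. With at least 10 counts in each sample there were 5 borrowed-name arms. hsa-let-7d-3p had 583 and 1407 counts, tgu-let-7b-3p 20 and 65, hsa-let-7f-1-3p 51 and 92, mmu-let-7i-3p 13 and 25, and hsa-let-7e-3p 28 and 32. In RPM, hsa-let-7e-3p was level at 2.98 and 3.01, as was its 5′ arm bta-let-7e at 1864 and 1849. For the other 4 the 5′ arms were at 3219 and 3138 RPM (bta-let-7d), 36362 and 38815 (bta-let-7b), 18994 and 22440.4 (bta-let-7f) and 11702 and 10085 (bta-let-7i), closer between the pools than the 3′ arms. The 3′ arm listed for cattle, bta-let-7a-3p, went the other way, at 48.2 and 42.4 RPM. The median log2 ratio of sample 2 over sample 1 in RPM was 0.77 for these 5 and -0.07 over the 102 borrowed-name miRNA with 10 counts. Both pools had the same labels, so no comparison of conditions follows, and the part of any cow in it was not tested.

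The same names were then set beside mouse, to see whether arms without a bovine name had a like level in another lactating gland. The mouse table lists 125 of the 167 names, and for 71 of these the listed sequences were identical. These 125 miRNA summed to 6569 and 6525 RPM in bovine and to 5692 and 5198 RPM in mouse. Across the 125, Spearman's rho of the mean levels was 0.76 between species, 0.98 between both bovine samples and 0.94 between both mouse samples, as a description over miRNA that share libraries. The 100 RPM limit was reached by 11 in a mouse sample, and 8 of these reached it in a bovine sample. hsa-miR-145-3p, ssc-miR-374a-3p and hsa-miR-500a-3p were not compared, as no mouse row of the same name was analysed here.

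Names that reached 100 RPM in any sample of bovine or mouse were tested between species with edgeR's quasi-likelihood test. Of 158 names tested, 55.1% were called at an adjusted p under 0.05, 27.2% higher and 27.8% lower in bovine. Of the 19 borrowed-name miRNA tested, 8 were called, 5 higher and 3 lower, and the median log2 fold change was 0.27, beside 0.06 over all 158. Each of these 8 had reached 100 RPM only in the species where it was higher. None of the borrowed-name miRNA that reached 100 RPM in both species was called. The filter set which names could be called, so the number of calls depends on it. Without a filter these 8 were still called by edgeR, hsa-miR-125b-2-3p only narrowly (adjusted p 0.0460). Scaling by library totals alone gave 6 higher and 2 lower and moved the median of all names to 0.57.
hsa-miR-376c-3p rose most, from 11.3 and 18.7 RPM in mouse to 233 and 158 RPM in bovine, a log2 fold change of 3.33 (SE 0.48, adjusted p 0.00207 by edgeR's quasi-likelihood test). gga-miR-29b-2-5p was at 25.2 and 9.77 RPM in mouse and at 166 and 125 RPM in bovine (log2 fold change 2.68). hsa-miR-20a-3p was at 31.6 and 30.3 RPM in mouse and at 205.3 and 225 RPM in bovine (2.43).
In each of these 3 miRNA both bovine values lay far above both mouse values. hsa-miR-361-3p was higher in bovine by 2.11 and hsa-miR-125b-2-3p by 1.23 on the log2 scale, with adjusted p of 0.00827 and 0.0397 in the same edgeR test. At a limit of 10 RPM the call of hsa-miR-125b-2-3p was lost (adjusted p 0.0564 in edgeR).
mmu-miR-146b-3p, the passenger of a miRNA induced by inflammatory signals, fell by 5.99 on the log2 scale, from 639 and 331 RPM in mouse to 8.19 and 11.4 RPM in bovine. Its other arm, bta-miR-146b, fell by 7.59. hsa-miR-378a-5p, from a hairpin studied in energy metabolism, was at 442 and 359.6 RPM in mouse and at 40.0 and 39.9 RPM in bovine, and fell by 3.69. mmu-miR-200a-5p fell by 1.56 (edgeR's adjusted p 0.0159, but 0.0583 with scaling by library totals alone), and its other arm bta-miR-200a by 3.21.
The other 11 were not called. rno-miR-340-5p was at 526 and 785 RPM in mouse and 838 and 712 RPM in bovine, and mmu-miR-140-5p was at 309 and 356 RPM in mouse and 309 and 330.1 RPM in bovine, so that the species overlapped. The log2 fold changes of these were -0.13 (SE 0.35) and -0.42 (SE 0.32).
Without bovine sample 1 or bovine sample 2, the calls of hsa-miR-361-3p, hsa-miR-125b-2-3p and mmu-miR-200a-5p were lost, with the lone bovine sample taken to vary like the mouse samples. Their log2 fold changes were then 2.11 and 2.13, 1.27 and 1.18, and -1.52 and -1.56. Fewer names were called without a bovine sample and more without a mouse sample. This held for the borrowed-name miRNA and over all names alike.
Set beside the whole of each list, the Dlk1-Dio3 region had 6 names tested, bta- names included, of which 5 were higher and 0 lower in bovine, with 0 lower also at an unadjusted p under 0.05 and in DESeq2. Of these, 2 were borrowed-name miRNA, hsa-miR-376c-3p, which was called, and mmu-miR-136-3p, which was at 35.4 and 73.3 RPM in mouse and 100.1 and 68.9 RPM in bovine and was not. Both reached the limit of 100 RPM in bovine alone. The filter thus made a fall unlikely to be seen for them, and the 0 lower says little. The epithelial list had 13 names tested, of which 1 was higher and 8 were lower, and the miR-30 family had 8, of which 3 were lower and none of its 3 borrowed-name miRNA was called.

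**Figure D3:**
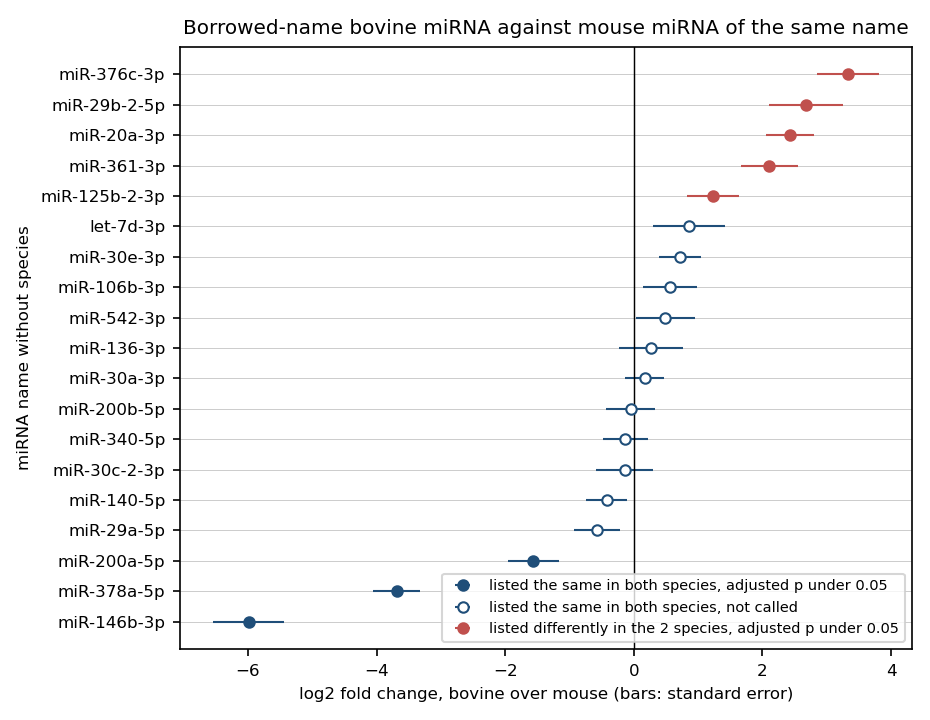
Log2 fold change of bovine over mouse with its standard error for the 19 borrowed-name miRNA tested, filled where the adjusted p was under 0.05. The 5 that were higher in bovine, from 1.23 to 3.33, are the 5 whose listed sequence differs between both tables (red), and mmu-miR-146b-3p lies lowest at -5.99.

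The 5 that were higher in bovine were also the only 5 of the 19 whose listed bovine and mouse sequences were not identical. Of the other 14, 0 were higher and 3 were lower in edgeR's quasi-likelihood test, with 0 higher also at an unadjusted p under 0.05 and in DESeq2. The same counts came out when only names with identical sequences were fitted (0 higher, 3 lower of 14), which was tried after the data had been examined. Over all 158 names, 26 of 74 with unlike sequences were higher and 23 lower, against 17 and 21 of 84 with identical sequences. The sequences are shown because the count of a miRNA depends on the strand that is listed. Positions are counted from the 5′ end of the strand listed for bovine, whose base stands first.
hsa-miR-20a-3p: aCTGCATTatgagcacttaaag
mmu-miR-20a-3p: aCTGCATTacgagcacttaaag
hsa-miR-376c-3p: aACATAGAggaaattccacgt
mmu-miR-376c-3p: aACATAGAggaaatttcacgt
hsa-miR-125b-2-3p: tCACAAGTcaggctcttgggac
mmu-miR-125b-2-3p: aCAAGTCAggttcttgggacct
gga-miR-29b-2-5p: aGCTGGTTtcacatggtggcttaga
mmu-miR-29b-2-5p: cTGGTTTCacatggtggcttagatt
hsa-miR-361-3p: tCCCCCAGgtgtgattctgattt
mmu-miR-361-3p: tCCCCCAGgtgtgattctgatttgt
The listed strands differ by T10C in miR-20a-3p and by C16T in miR-376c-3p, both outside the seed. miR-125b-2-3p differs by C13T and by a strand that both starts and ends 2 bases further on in mouse, and miR-29b-2-5p by such a shift of both ends without a substitution, which gives both a different seed in mouse. miR-361-3p differs by its 3′ end alone, with 23 bases listed for bovine and 25 for mouse. The part of the listing in the higher counts was not tested.

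The balance of both arms was compared between species as the log2 ratio of the counts of the borrowed-name arm over the other arm, with 0.5 added to each. With 2 samples against 2 no permutation test can go below p = 0.333, so none was made. Of 105 borrowed-name pairs with at least 10 counts in each of the 4 samples, 69 had both bovine values on the same side of both mouse values, 38 with a higher and 31 with a lower ratio in bovine. This is 65.7%, beside 64.8% over all 128 pairs that could be compared, and the median difference was -0.01. The 128 include the 105 borrowed-name pairs, so both shares were bound to be close. Of the 23 pairs with bta- names on both arms, 14 did not overlap. The leading arm was the same in all 4 samples in 98 pairs: the other arm led in 94 and the borrowed-name arm in 4.
Those 4 were rno-miR-340-5p, hsa-miR-376c-3p, mmu-miR-136-3p and mmu-miR-542-3p, so the arm without a bovine name was the leading arm in both species. rno-miR-340-5p held 91.9% and 91.1% of its pair in bovine and 86.5% and 80.6% in mouse. mmu-miR-542-3p held 99.8% and 99.4% in bovine and 84.9% and 86.8% in mouse.
In 2 pairs matched by name the leading arm changed with species. hsa-miR-30c-2-3p held 68.3% and 64.4% of its pair in bovine and 18.3% and 9.71% in mouse, while its own level was alike (100.4 and 98.6 RPM against 111 and 59.3 RPM). The difference lay in the 5′ arm, where bta-miR-30c had 439 and 580 counts and mmu-miR-30c-5p 4614 and 4633. The same 5′ rows are also the other arm of mmu-miR-30c-1-3p, and hsa-miR-30c-2-3p was placed on the precursor of bta-miR-30f. The change is thus one of rows paired by name and was not shown for a single hairpin. eca-miR-450b-3p held 3.86% and 8.85% in bovine and 95.9% and 93.1% in mouse, with 11 and 40 counts in bovine, and neither of its listed strands was identical to the mouse strand.
mmu-miR-144-5p, from an erythroid hairpin, held 34.3% and 20.8% of its pair in bovine and 2.31% and 1.78% in mouse. mmu-miR-30e-3p held 28.4% and 32.6% in bovine and 8.67% and 5.42% in mouse. hsa-let-7d-3p held 1.89% and 4.05% in bovine and 0.587% and 0.632% in mouse.

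**Figure D4:**
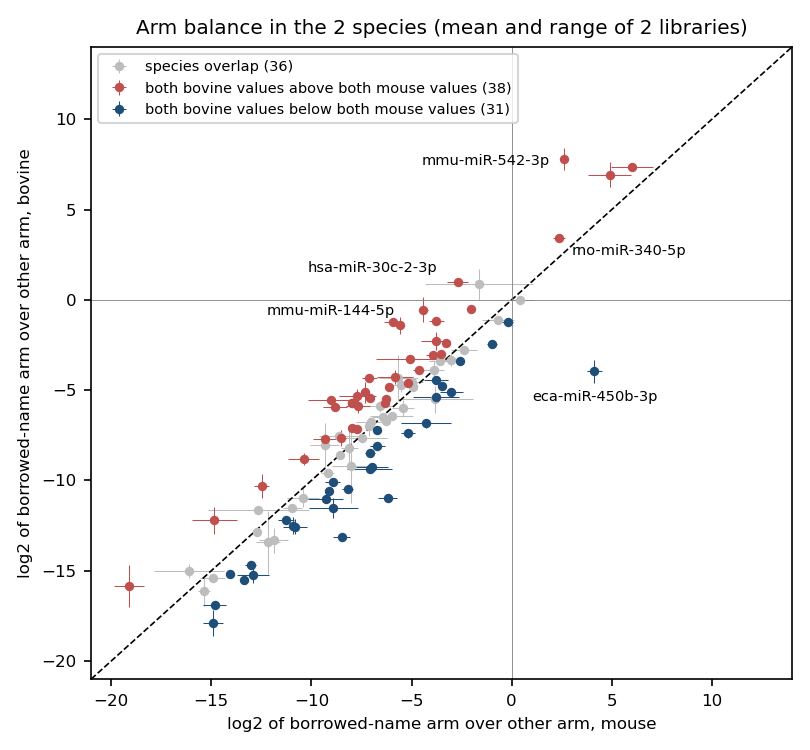
Log2 ratio of the borrowed-name arm over the other arm in bovine (vertical) against mouse (horizontal) for 105 pairs, with the point at the mean and bars to both samples of a species. Most pairs lie below 0 on both axes, 38 (red) lie above the dashed line of equal balance and 31 (blue) below it in all samples, and eca-miR-450b-3p stands apart at the lower right.

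Whether these arms enter AGO2 could be seen in mouse alone, where the same names are part of the table. The 125 mouse counterparts summed to 14029 and 12619 RPM in the AGO2 samples, and mmu-let-7d-3p made up 7944 and 6119.9 RPM of this. Of the mouse miRNA past the limit on low counts that the study's methods set, edgeR's quasi-likelihood test called 83 between AGO2 and total RNA. These were 27.8% of those tested, 15.4% higher and 12.4% lower in AGO2. Among the 45 counterparts tested, 7 were called, 6 higher and 1 lower, and the median log2 fold change was 0.45, beside -0.12 over all that were tested. Of those called higher, mmu-let-7b-3p, mmu-let-7i-3p, mmu-miR-190a-3p and mmu-miR-532-3p passed the limit on low counts only through AGO2 samples. The miRNA called lower, mmu-miR-30c-2-3p, passed it only through total RNA. The number of rises and the median thus depend in part on the filter.
mmu-let-7d-3p rose from 53.7 and 30.03 RPM in total RNA to 7944 and 6119.9 RPM in AGO2, a log2 fold change of 7.55 (SE 0.68, adjusted p 1.64e-07 by edgeR's quasi-likelihood test). Its 5′ arm, mmu-let-7d-5p, fell by 3.25 in the same comparison. Further 3′ arms of the family rose, mmu-let-7b-3p by 4.26 and mmu-let-7i-3p by 3.32, and their 5′ arms fell by 1.82 and 2.34. The calls of mmu-let-7b-3p and mmu-let-7i-3p were lost without either mouse sample (adjusted p 0.317 and 0.318, and 0.0714 and 0.0726, by edgeR) and without a filter (0.514 and 0.0571), and that of mmu-let-7b-3p also with library totals alone (0.0541). Neither passed the filter without AGO2 sample 2.
Both arms of these 3 hairpins thus moved in opposite directions. Of the 5 let-7 counterparts tested, 3 rose and 0 fell in edgeR, and 0 fell at an unadjusted p under 0.05 or in DESeq2, which called 4 higher. All of them but mmu-let-7d-3p passed the limit on low counts only through AGO2 sample 2. That 0 fell was thus largely set by the filter and says little about the family. Of all 16 let-7 rows tested, 5 rose and 9 fell. mmu-let-7f-1-3p (log2 fold change 2.62, adjusted p 0.0684 by the same edgeR test) was not called.
mmu-miR-532-3p rose by 4.11, from 17.2 and 11.7 RPM to 83.4 and 353 RPM, and mmu-miR-190a-3p by 5.38, from 1.29 and 1.31 RPM to 4.35 and 91.0 RPM. mmu-miR-136-3p rose by 2.61, from 35.4 and 73.3 RPM to 134 and 458 RPM. In these 3, AGO2 sample 2 was the higher. Per the paper, AGO2 sample 2 also held many more unique sequences than AGO2 sample 1, with many reads of low count that were then discarded. Its part in these rises was not tested.
mmu-miR-30c-2-3p was the only counterpart called lower in edgeR's main test, and fell by 2.75, from 111 and 59.3 RPM to 9.21 and 13.1 RPM, while mmu-miR-30c-5p rose by 1.75. The most abundant counterparts were not called, with mmu-miR-30a-3p at 1209 and 1187 RPM in total RNA and 1092 and 555 RPM in AGO2, and mmu-miR-340-5p at 526 and 785 RPM and 753 and 892 RPM.
The number of calls and their direction depended on single samples and on the tool. With either mouse sample or AGO2 sample 1 left out, edgeR called counterparts higher only. Without AGO2 sample 2 it called more lower than higher. DESeq2 with all samples gave 11 higher and 4 lower, and called 39.1% of all miRNA tested, against 27.8% in edgeR. mmu-miR-30c-2-3p was not called without mouse sample 1, mouse sample 2 or AGO2 sample 1, nor without a filter. mmu-miR-136-3p was not called without mouse sample 1 or AGO2 sample 2, and mmu-miR-190a-3p was not called without either mouse sample and was not tested without AGO2 sample 2. mmu-let-7d-3p and mmu-miR-532-3p were called under every alternative run.

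**Figure D5:**
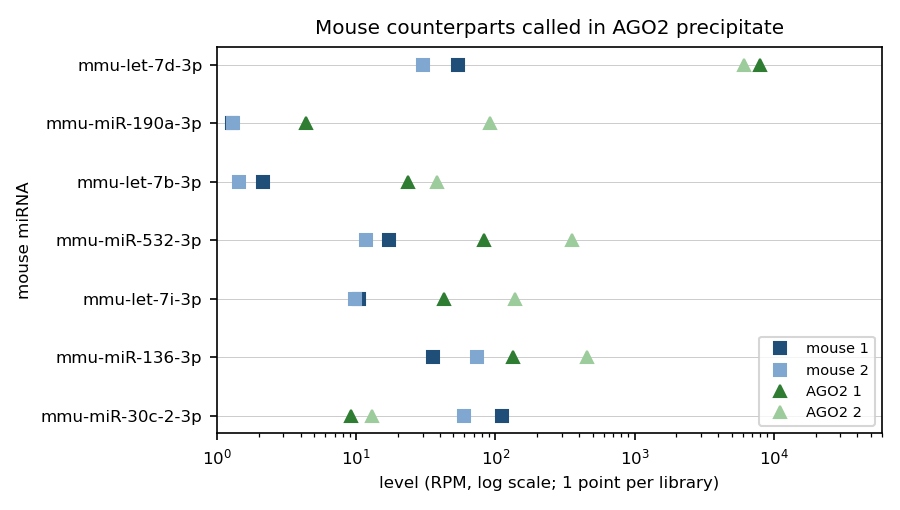
Level in RPM (log axis) of the 7 mouse counterparts called between AGO2 precipitate (triangles) and total RNA (squares), with 1 point for each sample. mmu-let-7d-3p lies at 53.7 and 30.03 RPM in total RNA and at 7944 and 6119.9 RPM in AGO2, and of these 7 mmu-miR-30c-2-3p alone lies lower in AGO2.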

How the data were processed

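Small RNA was sequenced in 2 bovine, 2 mouse and 2 AGO2 samples. Per their methods, the authors trimmed poly-A, selected reads by length and assigned them to miRBase or predicted precursors with miRDeep2. The files hold counts as deposited, 1 value per mature strand. A normalised column was left aside. From the deposited bovine predictions, the score of a precursor (a log-odds from miRDeep2) and its UMD3.1 position were taken. Totals per sample ran from 3909166 to 10613807 counts, and a count of 0 allowed up to 3 counts, or 0.283 to 0.767 RPM, for counting error only.

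RPM were computed here over all listed counts. Other arms and mouse counterparts were matched by name, an arm missing from a name being read from the position column. Counts were tested with edgeR 4.0.16 (TMM, glmQLFit, glmQLFTest, Benjamini-Hochberg, adjusted p under 0.05) over all names or miRNA past the filter, without a replicate block. The fits were tested on simulated data. Alternatives were DESeq2 1.42.0, other scalings, filters, matchings and each sample left out. R 4.3.3 and Python with pandas were used. The paper describes 2 mice, 2 animals for AGO2 and 2 pools of 2 cows behind the 2 samples of each group. The p-values measure the spread between these samples, in which animal and technical differences cannot be told apart.

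The miRNA and lists were chosen with earlier results of these data known. Named miRNA were all at 100 RPM in a bovine sample, all above the other arm with 10 counts in each sample, the 5 highest and lowest called in each test, and up to 4 per list with the most counts. Others were named after their values were seen.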

Additional observations from a re-analysis of the deposited data

How the results depend on the processing

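The number of borrowed-name miRNA at 100 RPM (19) was 15 to 23 over the alternatives. Their share of the counts (0.925%) was 0.911% to 0.939%, and the number above the other arm (12) was 11 to 15. These moved by less than 1.5 times. Pairs whose arm balance did not overlap between species were 69 of 105, beside 64.8% over all pairs in this main setting. They were 63 of 90 with at least 100 counts in each sample and 74 of 105 with 1 count added to each arm. With a sample left out, values overlap less readily, so those counts say nothing of stability. Calls between bovine and mouse (8) depended on the filter and the matching: 54 of 125 were called without a filter (52.8% of all names), 31 of 62 at 10 RPM (59.8% of all names), 4 of 15 when matched by identical sequence (44.0% of all names) and 3 of 14 among names with identical listed sequences, the last chosen after the data had been examined. They ranged from 5 to 12 with single samples left out. More and fewer names were tested under these settings, and other causes were not tested. Calls in AGO2 (7 of 45, of which 1 lower) were 15 of 45 with DESeq2 (4 lower) and 4 of 125 without a filter (all higher). Over all miRNA tested, 27.8% were called in the main fit, 39.1% with DESeq2 and 3.60% without a filter. The calls also changed with single samples left out, and the cause was not tested. The alternative fits, which share the same samples, gave 75 values of single called miRNA between species and 58 in AGO2. None of these values changed direction, while 8 and 15 of them missed the threshold. No paired analysis was possible because the labels carry no numbers that tie a sample of a group to a sample of another, although total RNA and AGO2 samples may share mice. With 2 samples in each group, and under 10 summed counts for 44 of the 167 miRNA, values of the rarest arms are imprecise.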

Other observations

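Of the 178 miRNA listed under another species, 11 had no count in either bovine sample, which allows up to 0.319 and 0.283 RPM. They were arms of well-known hairpins too, such as hsa-miR-222-5p, hsa-miR-92b-5p, mmu-miR-130a-5p and ssc-miR-155-3p.

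mmu-miR-3064-5p was the single borrowed-name miRNA that the files place on a predicted precursor, with 10 and 15 counts in bovine samples 1 and 2. The precursor lies at chr19:49332081-49332143 of UMD3.1 on the minus strand and had a miRDeep2 score of 3.5. The names of these miRNA were chosen for display after their values were seen.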
